A study of Mus musculus with 2 samples.

Results

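Apoe, Lpl, Fabp4, Fabp5, Cd36, Abca1, Abcg1, Lipa and Plin2 carry lipid into, through and out of macrophages. These 9 genes were taken by symbol from the feature list of each library, in which each symbol occurs 1 time among 31053 features. Single-cell transcriptomes were collected from the gut lamina propria of 1 wild-type (WT) library and 1 library of the genotype LncRNA17Rik knockout (KO). The text of the study speaks of a knockout of the long noncoding RNA lncLy6c, and whether both names mean the same RNA is not given in the sources used here. The loss of the targeted RNA was not checked here. The study described the cells as CD11b+ immune cells of the colon, taken from male mice aged 8 weeks and pooled before sequencing (n = 6, without saying whether this is per genotype), and the lncLy6c KO line as a CRISPR-Cas9 deletion on a C57BL/6J background. It names C57BL/6 mice without saying that the WT library came from them. Both libraries used 10x Genomics 3′ chemistry, and no treatment is named for either. The title of the WT library carries the letters GFC, whose meaning is not given in the sources used here, so a further condition of that library cannot be told apart from genotype. Animals cannot be told apart within a pool, so no test between genotypes was possible, and each difference below is a difference between 2 libraries.

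Macrophages take up lipoprotein and fatty acid through surface receptors and lipases, release cholesterol and fatty acid from lipoprotein in the lysosome, store the surplus as esters in lipid droplets, and hand cholesterol to acceptors outside the cell. Cholesterol derivatives activate the liver X receptors, which raise the transcription of the exporters, and fatty acids activate peroxisome proliferator-activated receptors, which raise the transcription of uptake and binding proteins. In the gut, macrophages clear dying cells and lie close to absorbed lipid.

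The 9 genes lie on 7 mouse chromosomes in the GRCm38 build with GENCODE M21 annotation, and all are protein coding. The uptake genes are Lpl (chr8:68880491-68907448, plus strand) and Cd36 (chr5:17781690-17888801, minus strand). The binding proteins Fabp4 (chr3:10204088-10208576, minus strand) and Fabp5 (chr3:10012548-10016607, plus strand) are near each other. Lipa (chr19:34492318-34527474) and Plin2 (chr4:86648386-86670060), both on the minus strand, serve release and storage. The efflux genes are Abca1 (chr4:53030787-53159895, minus strand), Abcg1 (chr17:31057675-31117988, plus strand) and Apoe (chr7:19696109-19699188, minus strand). None of them overlaps another counted feature.

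Promoters of 5 of the 9 genes (Abca1, Plin2, Cd36, Apoe and Lipa) were matched by symbol in RefSeq (GRCm38.p6). The 250 bases before the start site are shown for an efflux gene that was lower in the KO macrophages and an uptake gene that was higher, 5′ to 3′ on the minus strand. Capitals mark an E-box (CACGTG) and the element known as the liver X receptor site of this promoter in Abca1, and the nuclear receptor half-site AGGTCA, read from its other strand, in Cd36.
Abca1, chr4:53159896-53160145: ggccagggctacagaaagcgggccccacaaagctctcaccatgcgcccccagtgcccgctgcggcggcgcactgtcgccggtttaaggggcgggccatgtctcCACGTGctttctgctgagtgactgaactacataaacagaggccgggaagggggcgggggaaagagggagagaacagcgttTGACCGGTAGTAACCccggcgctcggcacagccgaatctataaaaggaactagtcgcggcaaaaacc
Cd36, chr5:17835897-17836146, at a start site inside the annotated gene: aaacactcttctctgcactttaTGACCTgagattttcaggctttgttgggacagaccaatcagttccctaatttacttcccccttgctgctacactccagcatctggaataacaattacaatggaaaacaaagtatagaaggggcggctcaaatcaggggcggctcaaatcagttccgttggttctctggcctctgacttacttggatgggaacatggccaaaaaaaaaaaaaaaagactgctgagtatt
On either strand, the E-box was in 6.02%, the half-site in 14.0% and the longer element in 0.00609% of all 32851 promoters of this length. The longer element was searched in the form known from Abca1, so its presence there was given in advance and its rarity is no finding. In Abca1 the E-box began at base -147 and the longer element at base -67 from the start site, in Cd36 the half-site began at base -228, and Plin2 held the half-site at base -218. Direct repeats of the exact half-site, spaced by 4 bases or by 1 base, were in 0.0152% and 0.0335% of all promoters. None of the 7 promoters of these genes held one (Apoe has 3 entries), and repeats with other letters were not counted. A match of letters shows no binding.

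After filtering, 2597 WT and 2514 KO cells remained, with medians of 5073 and 6564.5 unique molecular identifiers (UMIs) per cell. They formed 21 clusters, 18 of which were named by marker genes ("-like") and 3 of which were not (444 WT and 606 KO cells). Itgam, which encodes CD11b, had a UMI in 40.0% of WT and 57.8% of KO cells. It was detected in 61.8% and 68.6% of resident macrophage-like cells but in 14.0% and 7.27% of T cell-like cells. The 2 libraries shared 0 barcodes among the cells kept. Levels are given as counts of UMIs per 1000000 UMIs of the class (CPM), with exact Poisson intervals at 95%, and shares of cells carry Clopper-Pearson intervals in the underlying values. Both kinds of interval cover counting error only.

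In both libraries, 4 of the 9 genes (Cd36, Lipa, Abca1 and Apoe) were highest in resident macrophage-like cells. For Abca1 and Apoe this held under each of the other settings tried, as did the peak of Fabp5. In the WT library Cd36 was highest in cDC1-like or monocyte-like cells with every deposited barcode, Leiden resolution 0.5, 4000 variable genes, each library clustered alone or naming by marker score, and with cluster 3 alone Lipa was highest in KO neutrophil-like cells. Lpl and Fabp4 were highest in fibroblast-like cells and Fabp5 in mature DC-like cells. Under a stricter cell filter, however, Fabp4 was highest in WT mature DC-like and KO resident macrophage-like cells, with each library clustered alone in KO monocyte-like cells, and by marker score in endothelial-like cells, when Lpl was highest in WT pDC-like cells. Plin2 was highest in neutrophil-like cells in the WT library and in inflammatory monocyte-like cells (monocyte-like) in the KO library, but in resident macrophage-like cells by marker score (both libraries), at Leiden resolution 2 (WT) or with totals without mitochondrial, ribosomal protein and immunoglobulin UMIs (WT). Abcg1 was highest in neutrophil-like cells in the WT library and in NK cell-like cells in the KO library, with intervals that overlapped those of the next class in either library, and its highest class also changed by marker score, per-cell means or thinning. Apoe, Lpl and Fabp5 were each among the 10 genes that led a cluster (clusters 3, 12 and 18), although the 9 genes were kept out of the genes used for clustering, so these peaks are descriptions.

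**Figure D1:**
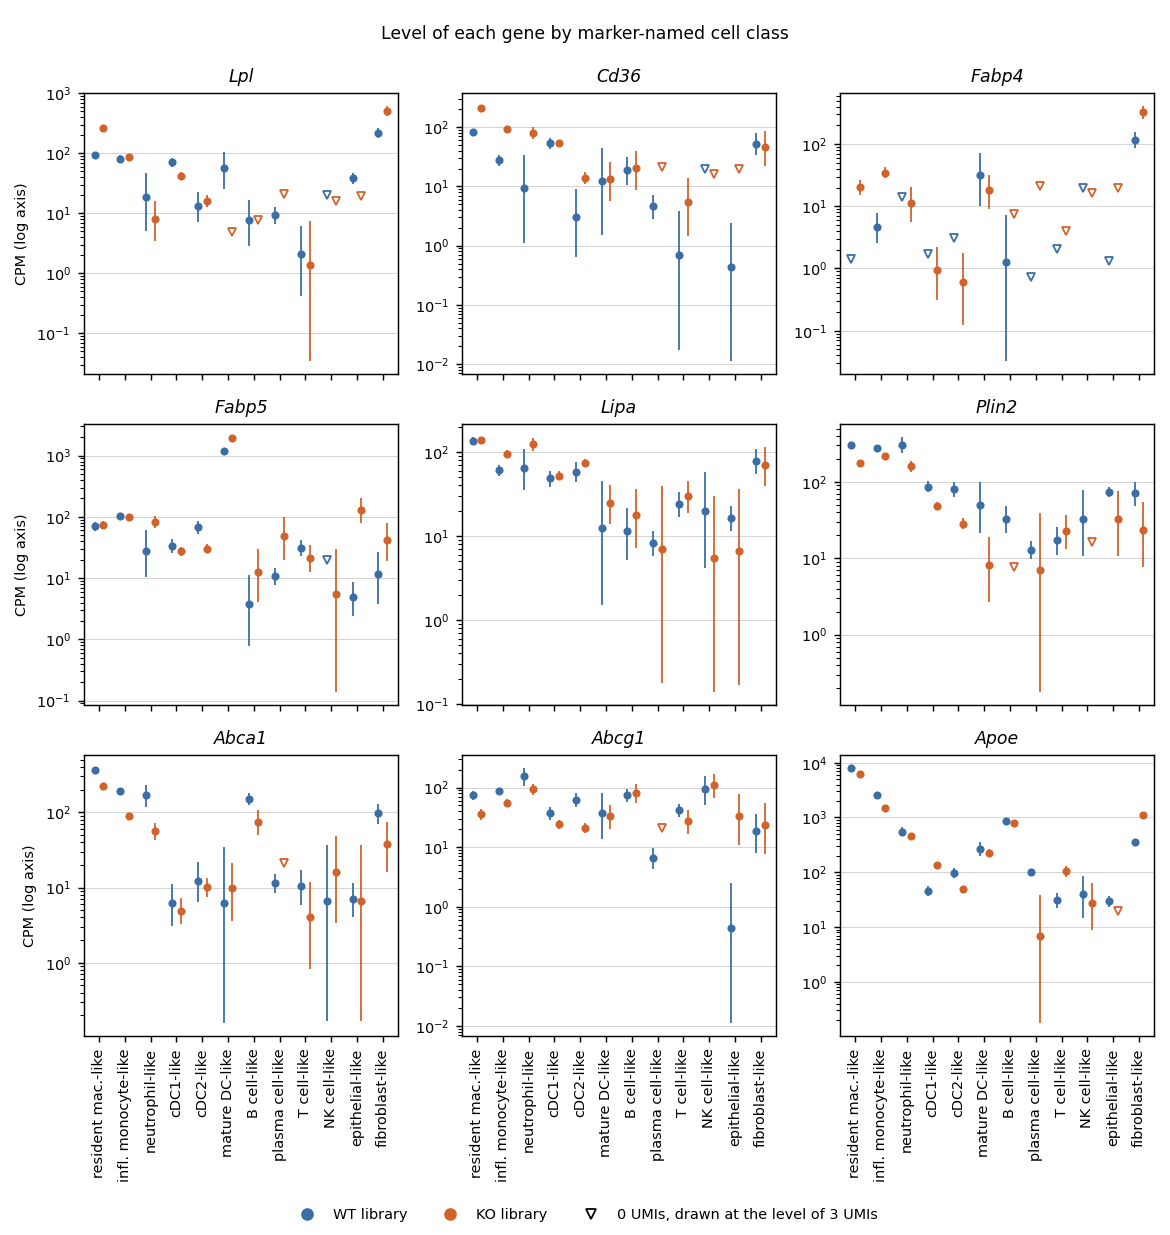
Levels of the 9 genes in CPM (log axis) in 12 cell classes, 1 point per library with its 95% counting interval (open triangles, 0 UMIs, drawn at the level of 3 UMIs). Apoe and Abca1 peak in resident macrophage-like cells of both libraries, Fabp5 in mature DC-like cells (1169 WT and 1923 KO CPM), and Lpl and Fabp4 in fibroblast-like cells.

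Lpl encodes lipoprotein lipase, which frees fatty acids from triglyceride-rich lipoprotein. Its level was 221 in WT and 513 CPM in KO fibroblast-like cells, from 80 and 21 cells. Resident macrophage-like cells followed with 92.8 and 264, and monocyte-like cells with 81.6 and 85.4. In the WT library the intervals of the last pair overlapped, and in the KO library they did not. Among lymphoid classes, T cell-like cells had 3 WT and 1 KO UMIs, B cell-like cells 6 and 0, and plasma cell-like cells 39 and 0 (from 235 WT but only 5 KO cells). In the WT library these were 2.07, 7.65 and 9.49 CPM, against 13.3 in cDC2-like cells. The cDC1-like level (71.1 WT and 42.5 KO CPM) rested on few cells, since 5 cells held 95.2% and 94.6% of the UMIs.

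Cd36 encodes a scavenger receptor that takes up fatty acids and oxidised lipoprotein. Its level was 81.9 in WT and 212 CPM in KO resident macrophage-like cells. In the WT library the next class was cDC1-like at 53.6, whereas in the KO library it was monocyte-like at 93.5, with an interval that overlapped that of neutrophil-like cells at 80.5. T cell-like cells had 1 WT and 4 KO UMIs. The order of the classes after the first was thus not the same in the libraries.

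The fatty acid binding proteins were spread unequally. Fabp4, well known from fat cells and from macrophages, had 71 UMIs in all kept WT cells and 269 in KO cells. Fibroblast-like cells held 117 WT and 325 KO CPM, all of them in at most 5 cells per library, in a class where the 6 endothelial markers summed to 377 and 809 CPM. The part of endothelial transcripts in that level was not tested. Of the 6 adipocyte markers, 1 UMI was counted in WT and 0 in KO fibroblast-like cells, with Adipoq, Cidec and Plin1 at 0 in both.

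Fabp5, the binding protein of epidermis and many immune cells, was concentrated in mature DC-like cells, the migrating dendritic cells marked by Ccr7 and Fscn1. There 78.9% of 19 WT cells and 89.7% of 39 KO cells had a UMI, and after thinning to 2000 UMIs per cell 75.0% and 71.1% had one. In T cell-like cells (median depths of 4968.5 and 5873.5 UMIs, against 8632 and 16030 in mature DC-like cells) 14.5% and 11.8% had one before thinning. These few cells carried 19.3% of all Fabp5 UMIs in the WT library and 50.7% in the KO library, although they made up 0.732% and 1.55% of the cells. The level was 1169 in WT (interval 1007 to 1349) and 1923 in KO (1814 to 2036) CPM, and 5 cells held 73.8% and 52.2% of the UMIs.

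Lipa is the lysosomal acid lipase that frees cholesterol and fatty acid from lipoprotein. Resident macrophage-like cells had 136 in WT and 138 CPM in KO, and in the KO library the interval overlapped that of neutrophil-like cells at 123. Plin2, which coats lipid droplets, was at 307 in neutrophil-like, 306 in resident macrophage-like and 280 CPM in monocyte-like cells of the WT library, with intervals of neighbours in this order that overlapped. The KO levels of these classes were 160, 178 and 217. All 3 classes were lower in the KO library, and the order of the outer classes was turned.

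The efflux genes differed from each other. Abca1 passes cholesterol to lipid-poor apolipoprotein, and its level was 365 in WT and 225 CPM in KO resident macrophage-like cells, followed by monocyte-like cells at 189 and 88.0. B cell-like cells also had Abca1, at 152 and 73.6 CPM, against 10.4 and 4.06 in T cell-like cells. Abcg1, which passes cholesterol to larger lipoprotein particles, was spread over myeloid and lymphoid classes, with 154 CPM in neutrophil-like, 93.0 in NK cell-like and 41.4 in T cell-like cells of the WT library.

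Apoe, the apolipoprotein E that macrophages secrete as a lipid acceptor, reached 8021 in WT and 6106 CPM in KO resident macrophage-like cells. These cells held 63.3% and 71.2% of all Apoe UMIs. A UMI was found in 95.1% of WT and 80.4% of KO resident macrophage-like cells (median depths of 5696 and 9151.5 UMIs), against 11.6% and 14.5% of T cell-like cells (4968.5 and 5873.5 UMIs), given for comparison. B cell-like cells had 877 and 802 CPM, with Apoe in 65.3% and 61.2% of cells. In those B cell-like cells the 12 resident macrophage markers summed to 166 and 25.4 CPM, with 8 of the 12 at 0 in the KO library, whereas in resident macrophage-like cells they summed to 9468 and 6194. Their part in the B cell-like level of Apoe was not tested.

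Whether the genes differed between genotypes was read in the 7 classes that held 50 or more cells per library, as the log2 ratio of the KO to the WT level for genes with at least 20 UMIs. In resident macrophage-like cells, the uptake genes Lpl and Cd36 and the binding protein Fabp4 were at least 2-fold higher in the KO library, and the exporter Abcg1 at least 2-fold lower. These are 4 of 9 genes, against 13.2% of the 9078 genes read in this class (4.78% higher and 8.4% lower). The median log2 ratio was 0.025 over the 9 genes and -0.19 over all genes. Most WT cells of this class were in cluster 3 (308 WT and 130 KO cells, led by Mmp13, C1qa and Apoe), and most KO cells in cluster 12 (19 and 150 cells, led by Retnla, Ccl24 and Lpl). Cluster 3 had 10 of the 12 resident macrophage markers raised and 0 monocyte markers, whereas cluster 12 had 5 of the 12 and 3 monocyte markers, with no resident macrophage marker among its 10 leading genes. The higher Lpl level holds for the class only, since in neither of these clusters was Lpl higher in the KO library (levels below).

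For uptake in resident macrophage-like cells, Lpl had 197 WT and 731 KO UMIs, a log2 ratio of 1.51 (interval 1.28 to 1.74), and was found in 15.9% and 29.6% of cells. Cd36 had 174 and 587 UMIs, a log2 ratio of 1.37 (1.13 to 1.62), and was found in 16.8% and 38.9% of cells. Thinning to 2000 UMIs per cell left out 65 WT and 30 KO cells of this class. In the cells that remained, the shares were 9.92% and 16.0% for Lpl and 9.92% and 18.4% for Cd36. Among those cells both shares were also higher in the KO library at equal UMIs per cell. Thinning leaves the mix of clusters unequal, as 19 of the WT and 140 of the KO cells that remained were in cluster 12. In T cell-like cells the thinned shares were 0% for Lpl in both libraries and 0.420% and 0.926% for Cd36. The markers of endothelial cells, which also use both genes, summed to 56.0 CPM in WT and 28.9 in KO cells of this class, with Egfl7 at 0 in WT. The direction for Cd36 was the same in 12 of 12 other ways of filtering, clustering and scaling, each at least 2-fold. For Lpl it was the same in 9 of 12, with log2 ratios of -0.40 to -0.22 in the others.

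Fabp4 had 0 UMIs in 327 WT and 56 UMIs in 280 KO resident macrophage-like cells. It was 14.3-fold higher in the KO library when the WT class is set to 3 UMIs, and with counting error the log2 ratio was at least 3.49. Of the KO UMIs, 89.3% came from 5 cells, and 3.57% of KO cells had any. The direction was the same in the 10 other settings with enough UMIs, with the lowest log2 ratio at 0.94 under a stricter cell filter. With 3 cells as the limit for a count of 0, the 0 of 327 WT cells allows a share of cells with a UMI of up to 0.917%, for counting error only. The 6 adipocyte markers together had 2 WT and 2 KO UMIs in this class, with Adipoq, Cidec and Plin1 at 0 in both. Fabp5 (69.7 WT and 73.7 KO CPM, log2 ratio 0.080, interval -0.23 to 0.40) and Lipa (0.025, -0.20 to 0.25) had intervals that include 0. Fabp5 kept its sign in 7 of 12 other ways of processing, and with 4000 variable genes its ratio was -1.28.

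For storage and efflux, Plin2 had 649 WT and 494 KO UMIs (306 and 178 CPM, log2 ratio -0.78, interval -0.95 to -0.61). Abca1 had 776 and 624 UMIs (log2 ratio -0.70, -0.85 to -0.54), but the ratio was -0.092 with every deposited barcode and -0.33 in cluster 3. Abcg1 had 157 and 98 UMIs, or 73.9 and 35.4 CPM (log2 ratio -1.06, -1.44 to -0.69). All 3 were lower in the KO library by less than 2-fold except Abcg1, and each kept its direction in 12 of 12 other ways of processing. Apoe was lower too (log2 ratio -0.39, -0.42 to -0.36), but its direction held in only 7 of 12, and the log2 ratio reached 1.12 with every deposited barcode.

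**Figure D2:**
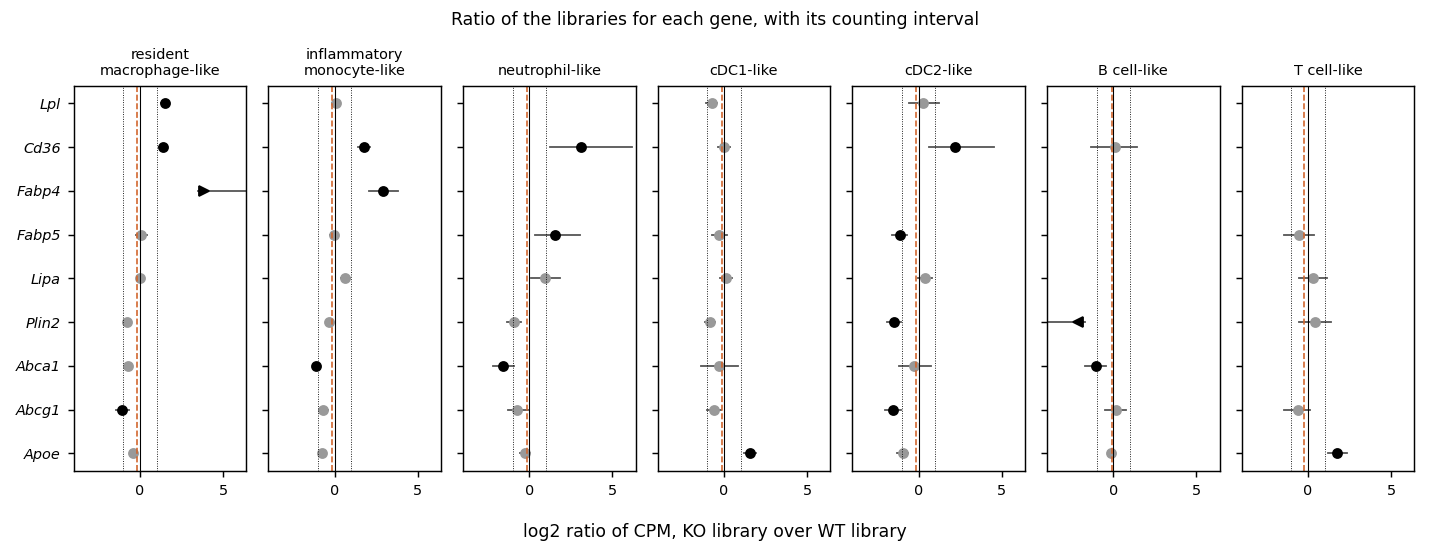
The log2 ratio of the KO to the WT level for each gene in 7 cell classes, with 95% counting intervals as lines. Black points are at least 2-fold, and arrowheads mark ratios with a library at 0 UMIs, set to 3 UMIs. Dotted lines mark 2-fold and the dashed line is the median of all genes read. Cd36 lies to the right in resident macrophage-like (1.37), inflammatory monocyte-like (1.74), cDC2-like (2.20) and neutrophil-like cells (3.11).

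In monocyte-like cells, 3 of 9 genes were at least 2-fold different, Cd36 and Fabp4 higher and Abca1 lower in the KO library, against 13.3% of the 8999 genes read (3.18% higher and 10.1% lower). The median log2 ratio was -0.036 over the 9 genes and -0.19 over all genes. Here too the libraries filled different clusters. Cluster 1 (led by Ly6i, Cxcl9 and Sirpb1c) held 487 WT and 39 KO cells, cluster 5 (led by Chil3, Lyz2 and Ace) 56 and 291, and cluster 19 (with Rsad2 and Ccl2 among its leading genes) 17 and 37.

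Cd36 had 84 WT and 288 KO UMIs in these monocyte-like cells (28.0 and 93.5 CPM, log2 ratio 1.74, interval 1.39 to 2.11). Fabp4 had 14 and 107 UMIs (4.66 and 34.7 CPM, log2 ratio 2.90, 2.09 to 3.82), found in 1.61% and 10.4% of cells and, thinned, in 0.696% and 5.44%. The 6 adipocyte markers together had 2 WT and 0 KO UMIs in this class. The direction and a 2-fold size of Fabp4 held in 12 of 12 other ways of processing. Cd36 kept its direction in 12 and a 2-fold size in 8 of 12, with the lowest log2 ratio at 0.47 with 4000 variable genes. Without cluster 1, a choice made after seeing the data, the log2 ratio was 2.55 for Fabp4 but 0.48 for Cd36, so the 2-fold size of Cd36 needed cluster 1.

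Lpl (log2 ratio 0.066, interval -0.19 to 0.32) and Fabp5 (-0.036, -0.27 to 0.20) had intervals that include 0 in the monocyte-like cells, and Lipa was higher in the KO library by less than 2-fold (60.6 and 94.8 CPM, 0.65, 0.37 to 0.92). Abca1 had 567 WT and 271 KO UMIs (189 and 88.0 CPM, -1.10, -1.32 to -0.89). It kept its direction in 11 and a 2-fold size in 7 of 12 other ways of processing. Without cluster 1 the log2 ratio of Abca1 was 0.022, and within cluster 1 its level was 208 in WT and 96.5 in KO cells, from 487 and 39 cells. Plin2 (-0.37), Abcg1 (-0.67) and Apoe (2532 and 1470.0 CPM, -0.78) were lower by less than 2-fold. The 12 resident macrophage markers summed to 1645 CPM in WT and 627 in KO monocyte-like cells, with Folr2 at 0 in WT and Cd163 at 0 in KO, and their part in these ratios was not tested.

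In cluster 3, where the C1q genes lead and both libraries had over 100 cells, Cd36 was at 54.5 WT and 186 KO CPM (log2 ratio 1.77, interval 1.43 to 2.12) and Abcg1 at 72.2 and 19.5 (-1.89, -2.62 to -1.22). Fabp4 had 0 and 31 UMIs, all from at most 5 cells, and with it 3 of 9 genes were at least 2-fold different, against 14.2% of genes (3.91% higher and 10.3% lower). Lpl was at 48.0 and 45.6 CPM (-0.073, -0.60 to 0.44). Apoe was higher in the KO library in this cluster, at 8354 and 13087 CPM (0.65, 0.62 to 0.68), and Plin2 lower (279 and 158, -0.82). The class ratios of Lpl and Apoe thus had another size or sign in cluster 3 than in the whole class.

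Cluster 12 carried most of the Lpl. Its 19 WT cells had 715 (interval 583 to 868) and its 150 KO cells 403 (373 to 434) CPM, and Lpl was among the 10 genes that led this cluster, so the level itself is no separate finding. The cluster held 102 of the 197 WT and 682 of the 731 KO Lpl UMIs of the class. Lpl was thus not higher in the KO library in cluster 3 or in cluster 12. Its higher class level goes with the 150 KO cells in cluster 12, against 19 WT cells. Cd36 was at 463 and 229, Plin2 at 673 and 191, Abca1 at 442 and 187, and Apoe at 3393 and 1674 CPM. All of these were lower in the KO cells of cluster 12, but 5 of the 19 WT cells held 77.3% of the Cd36 UMIs.

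In cluster 5 neither Cd36 nor Abca1 was 2-fold different. Cd36 was at 92.4 WT and 104.5 KO CPM (log2 ratio 0.18, interval -0.35 to 0.75) and Abca1 at 92.4 and 77.8 (-0.25, -0.79 to 0.34). Fabp4 was the 1 gene of the 9 at least 2-fold different, against 16.2% of genes (6.41% higher and 9.79% lower), with 1 WT and 107 KO UMIs (3.84, 1.33 to 9.16). In cluster 19, Plin2 was at 293 and 442 and Abca1 at 67.0 and 185 CPM, from 17 and 37 cells, with intervals that overlapped for Plin2 and not for Abca1.

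**Figure D3:**
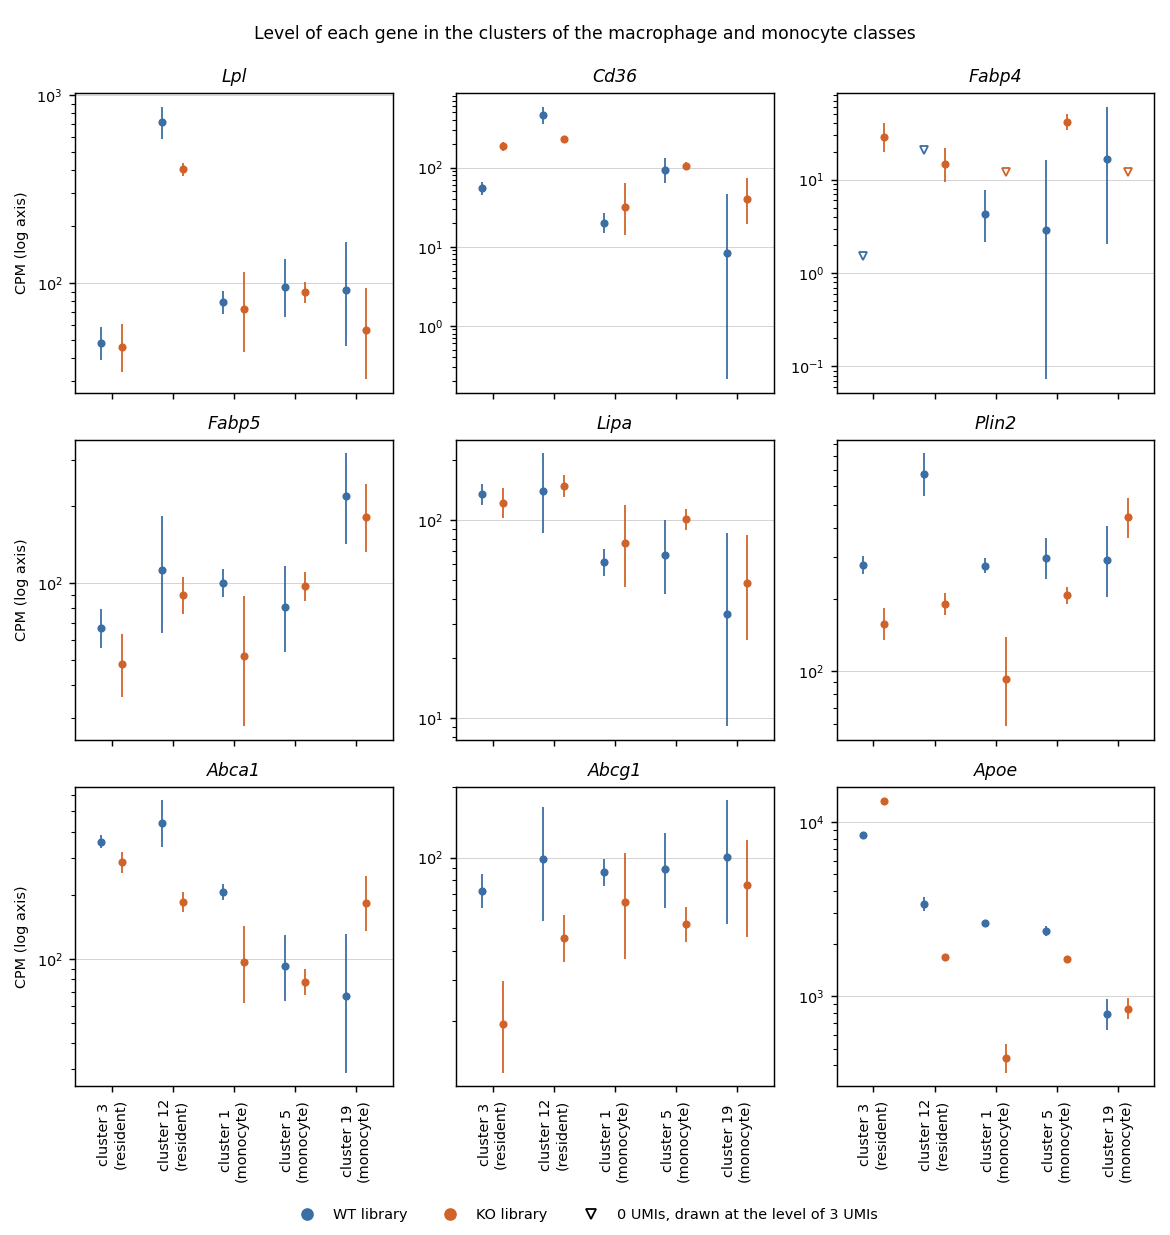
Levels of the 9 genes in CPM (log axis) in the 5 clusters of the 2 macrophage and monocyte classes, 1 point per library with its 95% counting interval (open triangles, 0 UMIs, drawn at the level of 3 UMIs). Lpl is highest in cluster 12 of either library, and Abcg1 is lower in KO cells of cluster 3 (19.5 against 72.2).

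In cDC2-like cells, Cd36 was at least 2-fold higher in the KO library and Fabp5, Plin2 and Abcg1 at least 2-fold lower, 4 of the 8 genes read, against 13.3% of genes (6.22% higher and 7.05% lower). Plin2 had 79 WT and 143 KO UMIs in 97 and 360 cells (81.1 and 28.4 CPM, log2 ratio -1.51, interval -1.92 to -1.10). Abcg1 was at 62.6 and 21.3 CPM (-1.56, -2.02 to -1.08) and Fabp5 at 67.7 and 30.4 (-1.15, -1.58 to -0.72). Cd36 rested on 3 WT and 71 KO UMIs (2.20, 0.59 to 4.51). Plin2 kept a 2-fold size in 9 and Abcg1 in 8 of 12 other settings, but Fabp5 in 3 of 12 and Cd36 in 5 of 11. The 10 inflammatory monocyte markers summed to 2019 CPM in WT and 670 in KO cDC2-like cells, all 10 detected in both, and their part in these ratios was not tested.

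In cDC1-like cells 1 of 8 genes, Apoe, was at least 2-fold different, against 8.15% of genes (4.04% higher and 4.12% lower). Its level was 45.7 in WT and 134 CPM in KO cells (log2 ratio 1.55, interval 1.21 to 1.90), but 84.0% of the KO UMIs came from 5 cells and 27.0% of WT against 25.2% of KO cells had any. The direction held in 6 of 11 other settings. The class joins cluster 6 (135 WT and 203 KO cells) and cluster 14 (28 and 103 cells). In cluster 6 Apoe was lower in the KO library (38.4 and 25.9 CPM, log2 ratio -0.57, interval -1.11 to -0.016). Cluster 14 held 31 WT and 634 KO Apoe UMIs, so the higher class level came from that cluster. The 12 resident macrophage markers summed to 160 and 215 CPM in cDC1-like cells, with Mertk at 0 in WT, and their part was not tested. Cd36 was level (53.6 and 53.8 CPM, log2 ratio 0.0030, -0.34 to 0.35), and Plin2 was lower by less than 2-fold (-0.84, -1.14 to -0.55). Within cluster 6, 1 of 7 genes was at least 2-fold different, against 8.09% of genes. It was Fabp5, lower in the KO library (40.8 and 15.2 CPM, log2 ratio -1.43, -2.05 to -0.81).

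Neutrophil-like cells showed 3 of 7 genes at least 2-fold different, against 19.6% of genes (7.37% higher and 12.2% lower). Abca1 had 36 WT and 55 KO UMIs in 82 and 277 cells (168 and 56.1 CPM, log2 ratio -1.58, interval -2.21 to -0.93), with the same direction and a 2-fold size in 12 of 12 other ways of processing. Cd36 rested on 2 WT and 79 KO UMIs (3.11, 1.21 to 6.18), of which 72.2% of the KO UMIs came from 5 cells. Fabp5 rested on 6 and 80 UMIs (1.55, 0.36 to 3.03). Plin2 was lower by less than 2-fold (307 and 160 CPM, -0.94, -1.36 to -0.50). The 12 resident macrophage markers summed to 661 and 218 CPM, with Folr2 and Mertk at 0 in both, and their part was not tested.

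In B cell-like cells 2 of 5 genes were at least 2-fold lower in the KO library, against 13.1% of genes (1.86% higher and 11.2% lower). Abca1 had 119 WT and 29 KO UMIs (log2 ratio -1.04, interval -1.68 to -0.45), and Plin2 had 26 and 0 UMIs, at least 4.35-fold lower. The 8 markers of the neutrophil list summed to 1124 and 63.5 CPM in those cells, with 4 at 0 in the KO library (Cxcr2, Retnlg, Mmp9 and G0s2), and their part was not tested. In T cell-like cells 1 of 5 genes, Apoe, was at least 2-fold higher, against 19.5% of genes (4.93% higher and 14.6% lower), with 45 and 78 UMIs (1.76, 1.22 to 2.33). Cluster 15 (75 WT and 47 KO cells) held 9 and 59 of these UMIs. In cluster 8 (167 and 63 cells) Apoe was at 33.1 and 48.1 CPM (log2 ratio 0.54, -0.34 to 1.38). Over the T cell-like class 85.9% of the KO Apoe UMIs came from 5 cells, while the 12 resident macrophage markers summed to 80.8 and 227 CPM. Their part was not tested.

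Over all kept cells, where the mix of classes differs between the libraries, Cd36 (log2 ratio 1.44), Fabp4 (1.69) and Fabp5 (1.02) were at least 2-fold higher in the KO library and none of the 9 genes was as much lower, against 24.3% of the 14006 genes read (4.84% higher and 19.4% lower). Abca1 (-0.79), Plin2 (-0.53), Apoe (-0.41) and Abcg1 (-0.32) were lower by less than 2-fold.

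**Figure D4:**
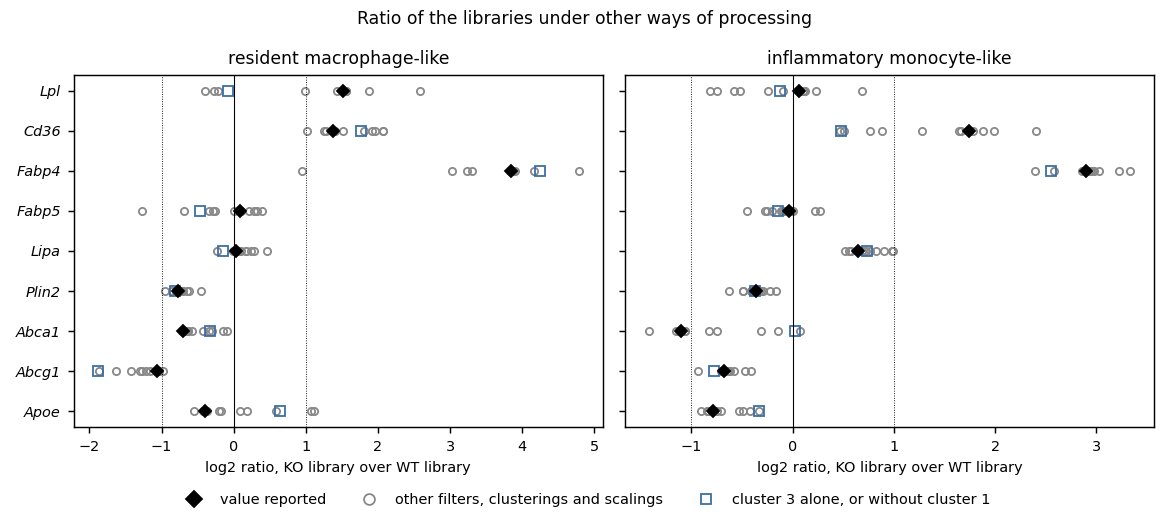
The log2 ratio of the KO to the WT level in the resident macrophage-like and monocyte-like classes as reported (diamonds), under other filters, clusterings and scalings (circles), and in cluster 3 alone or without cluster 1 (squares). Cd36 and Fabp4 stay right of 0 and Plin2 and Abcg1 left of 0 in both classes, while Lpl in resident macrophage-like cells runs from -0.40 to 2.59.

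A list of 58 other genes of lipid handling, in 8 roles, was read in the same way. In resident macrophage-like cells, 43 had enough UMIs and 3 were at least 2-fold higher and 5 at least 2-fold lower in the KO library (18.6%, against 13.2% of all genes), with a median log2 ratio of -0.061. Within cluster 3, 3 were higher and 1 lower of 41 (9.76%, against 14.2% of all genes there). In monocyte-like cells, 46 were read, of which 3 were higher and 5 lower (17.4%, against 13.3%), with a median of 0.18. Within cluster 5, 9 were higher and 3 lower of 40 (30%, against 16.2%), among them 4 of the 6 lipid-associated macrophage genes, all higher. This cluster had 56 WT cells, in which Cd9 and Spp1 of that role had 6 and 5 UMIs.

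The lipid-sensing transcription factors stood on both sides. Nr1h3, which encodes liver X receptor alpha, known to activate Abca1, Abcg1 and Apoe, was at 72.5 WT and 12.6 KO CPM in resident macrophage-like cells (154 and 35 UMIs, log2 ratio -2.52, interval -3.09 to -1.98). It was lower in cluster 3 as well (152 and 14 UMIs, -2.56) and in 12 of 12 other ways of processing, each at least 2-fold. Nr1h2, which encodes liver X receptor beta, was at 36.7 and 32.1 (-0.19, -0.65 to 0.27). Pparg, which encodes the receptor known to activate Cd36, Fabp4 and Lpl, was higher in the KO library (14 and 41 UMIs, 1.17, 0.26 to 2.16). It had 14 WT and 15 KO UMIs in cluster 3 (7.07 and 14.0 CPM, with intervals that overlapped) and 0 and 26 in cluster 12. Srebf2, the activator of sterol synthesis and uptake, was higher as well (50.4 and 106.6 CPM, 1.08, 0.76 to 1.41). It kept a 2-fold size in 8 of 12 other ways of processing (down to 0.63).

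In monocyte-like cells Pparg was again higher (14 and 49 UMIs, log2 ratio 1.77, interval 0.89 to 2.74) and Nr1h3 lower (108 and 27 UMIs, -2.04, -2.70 to -1.42). By cluster, Pparg was at 4.33 WT and 4.02 KO CPM in cluster 1 (11 and 1 UMIs). In cluster 5 it was at 5.78 and 18.6 CPM (2 and 48 UMIs), with intervals that overlapped, and cluster 19 had 1 and 0 UMIs. Within cluster 5, however, Nr1h3 had 1 WT and 18 KO UMIs, and without cluster 1, which held 104 of the 108 WT UMIs, the class ratio was -0.081. The sum of the resident macrophage markers was lower in these KO cells too, as given above, and its part was not tested. Srebf2 (0.30) and Nr1h2 (-0.54) were less than 2-fold different there.

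**Figure D5:**
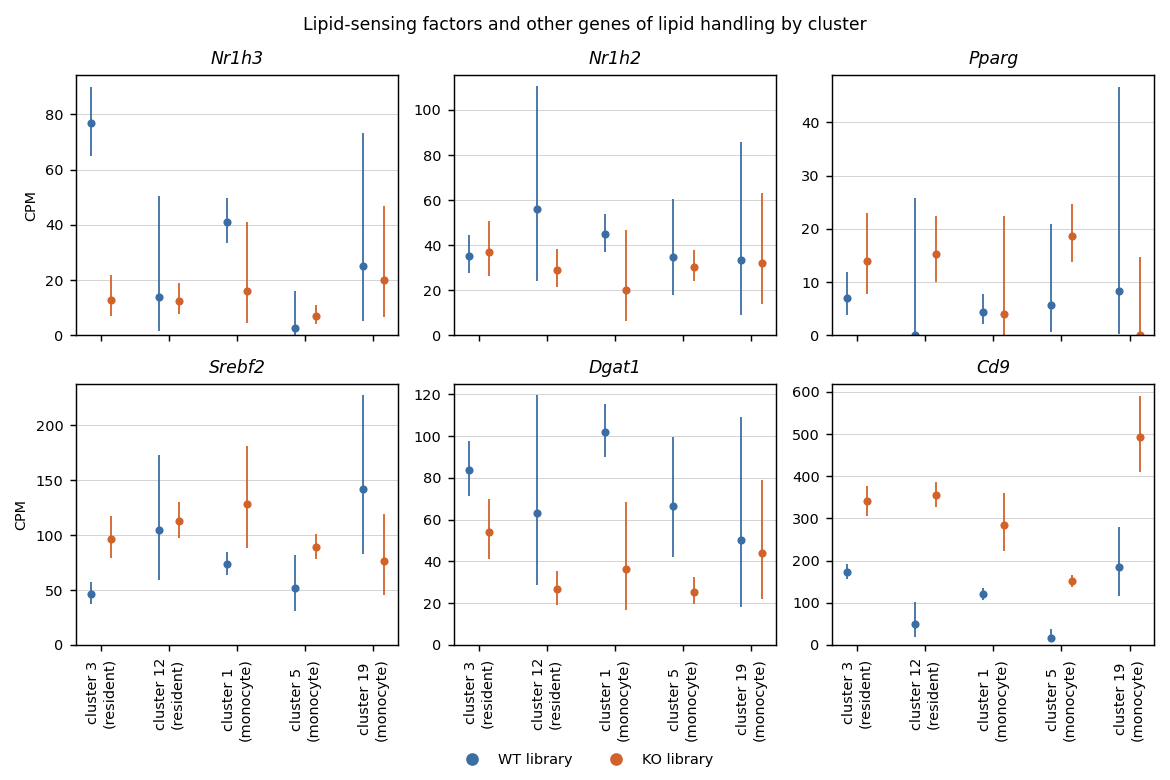
Levels in CPM of 4 lipid-sensing factors (Nr1h3, Nr1h2, Pparg and Srebf2), Dgat1 and Cd9 in the 5 macrophage and monocyte clusters, 1 point per library with its 95% counting interval. Nr1h3 is at 76.7 in WT cells of cluster 3 and far lower in KO cells (log2 ratio -2.56), and Nr1h2 has overlapping intervals there.

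Of the remaining genes of the list, few were 2-fold different. Dgat1, which makes triglyceride for droplets, was lower in the KO library in resident macrophage-like cells (82.4 and 37.2 CPM, log2 ratio -1.15) and in monocyte-like cells (95.9 and 27.9, -1.78), while Hilpda, a droplet protein, was at 0.73 and -0.36. In each of the monocyte-like clusters the Hilpda level was higher in the KO library (197 and 233 CPM in cluster 1, 83.8 and 110.3 in cluster 5, 117 and 370 in cluster 19), and its class ratio kept its sign in 8 of 12 other ways of processing. Slc27a1, a fatty acid transporter, was lower in both classes (-1.28 and -3.70). In monocyte-like cells its WT UMIs lay mostly in cluster 1 (72 WT UMIs, and 0 in the 39 KO cells). Cluster 5 had 4 and 5 UMIs and cluster 19 had 0 and 1. Lipe, a cytosolic lipase, was lower in resident macrophage-like cells (-1.01), and Abcg2, a transporter, in both classes from few UMIs (18 WT and 9 KO, then 19 and 9). In resident macrophage-like cells Lipe kept a 2-fold size in 1, and Dgat1 and Slc27a1 each in 7, of 12 other ways of processing, with ratios of Lipe up to -0.20. Within cluster 3 none of these was 2-fold different (Dgat1 -0.64, Slc27a1 -0.37 and Lipe -0.62). Lrp1, an uptake receptor, was less than 2-fold different in both classes (0.84 and 0.35).

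The lysosomal cholesterol carriers Npc1 (log2 ratio 0.38 in resident macrophage-like and 0.71 in monocyte-like cells) and Npc2 (-0.42 and 0.086) were less than 2-fold different, as were Mylip (-0.25 and -0.71), Abca7 (0.63 and 0.26) and Insig1 (0.50 and 0.44), which holds back sterol synthesis. Fabp3 had 4 WT and 14 KO UMIs in resident macrophage-like and 9 and 12 in monocyte-like cells (log2 ratio 0.38, interval -0.99 to 1.80), and Fabp2 had 3 and 0, then 13 and 0. Of the genes used to mark lipid-associated macrophages, Cd9 was higher in the KO library in resident macrophage-like cells (165 and 350.1 CPM, 1.08, a 2-fold size in 7 of 12 other ways of processing), Lgals3 was higher by less than 2-fold (0.92 and 0.68), and in monocyte-like cells Spp1 was higher (1.13) and Cd63 lower (-1.46). In monocyte-like cells the class ratio of Cd9 was 0.77, with a 2-fold size in 6 of 12 other ways of processing. The Cd9 level was higher in the KO library in each of their clusters. It was 121 and 285 CPM in cluster 1, 17.3 and 151 in cluster 5, and 184 and 494 in cluster 19. Spp1 kept a 2-fold size in 8 and Cd63 in 7 of 12 other ways of processing. Of the 339 KO Spp1 UMIs, 218 came from the 37 cells of cluster 19, while in cluster 1 Spp1 was at 55.5 WT and 36.2 KO CPM. Cd63 was at 95.3 WT and 100.5 KO CPM in cluster 1, and its class ratio was -0.68 without that cluster. Ch25h, which makes a cholesterol derivative, was higher there from 12 WT and 29 KO UMIs (1.24). Abcg2 and Ch25h were named to complete these counts, after their values were seen.

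Patterns over the 17 profiles (classes with at least 50 cells, per library) were compared by Pearson's r on log2 levels among 9485 genes. The gene most like Abca1 was Apoe (r = 0.93), and no other pair among the 9 was as close, the next being Fabp5 with Lipa (0.78). Arap1 and Lgmn followed for Abca1, and Tlr7 and Wdr81 for Apoe. Abcg1 was most like Gmip (0.95), followed by Fbrs and Rhog, and its r with Lpl was -0.13. Plin2 was most like Ier3 (0.97), then Ralb and Rnpep.

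Fabp5 was most like Vill (0.95), followed by Cyba and Cd68, the last a lysosomal protein of macrophages. Lipa was most like Rnf13 (0.92), then Gab2 and Creb5. Fabp4 was most like Pdpn (0.93), Vcan and Thbd, of which Vcan was one of the monocyte markers used for naming. Lpl was like Sash1 (0.89) and Tceal8, and Cd36 like Hspa1a, Lamtor3 and Ccl7 (0.80 each). Mature DC-like cells, where Fabp5 peaked, and KO fibroblast-like cells were too few to be among these profiles. The profiles share their library and its depth, so these values are descriptions.

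Detection of several of the 9 genes in a cell was compared at 2000 UMIs per cell. In resident macrophage-like cells, 45.0% of 262 WT and 31.6% of 250 KO cells had at least 3 of the genes, and 1.91% and 7.20% had none. In cluster 3 the shares with at least 3 were 44.0% and 30.9% and those with none 1.65% and 0%, whereas in cluster 12 they were 57.9% of 19 and 32.1% of 140 cells with at least 3, and 5.26% and 12.9% with none. In monocyte-like cells, 27.1% and 26.9% had at least 3, but 28.3% of 361 WT and 8.70% of 23 KO cells in cluster 1, and 24.1% of 54 and 26.2% of 279 in cluster 5. Apoe, found after thinning in 93.9% of WT and 71.6% of KO resident macrophage-like cells, was the gene most often among them.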

How the data were processed

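The deposited values were whole-number UMI counts per gene and cell. The authors made them with Cell Ranger 3.0.2 (per the file headers), and the submitters' notes name Seurat 4 and the mm10 build. Leiden clustering took the place of the study's deep-learning clustering (DESC). Cells with 200 to 6000 detected genes and at most 15% mitochondrial UMIs were kept, leaving 18.5% of WT and 16.8% of KO barcodes out. Both the deposited barcodes and the kept cells differ in number from the cell count the study states. Counts were scaled to 10000 per cell, and 2000 variable genes (without the 9 genes and the list of 58), 30 principal components and 15 neighbours gave Leiden clusters at resolution 1 (Python 3.11.15, scanpy 1.11.5, leidenalg 0.10.2, scikit-learn 1.9.0, numpy 2.4.6, scipy 1.17.1). A cluster took the name of the marker list with the largest share of genes raised at least 2-fold over the other cells and found in at least 10% of its cells. It stayed unnamed with fewer than 3 such markers or with more markers of another list among its 10 leading genes. The members and lists were chosen with earlier results of these data known.

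Counts were summed per class and library. A ratio was read at 20 or more UMIs in both libraries together and 50 or more cells in each, and a 2-fold size was the threshold. A class with 0 UMIs was set to 3 UMIs for the ratio, and the bound with counting error is the end of its interval. Intervals at 95% (exact Poisson, Clopper-Pearson and the exact interval of a ratio of counts) cover counting error only. Those of a ratio were tried on simulated Poisson counts, which is the model they assume. That trial cannot show how they do where a few cells hold most of the UMIs. Shares were also read after thinning to 2000 UMIs per cell, which leaves out the cells below that depth. Scrublet called 1 WT (0.0385%) and 9 KO (0.358%) cells as doublets, too few to have worked, so no doublets were removed. Named genes were the 9 genes, the 2 most abundant genes per role of the list, those at least 2-fold different with 50 or more UMIs, and the 3 most alike per gene. Some genes that this rule names are not reported here. Of the tried alternatives, 14 were planned and 2 were added after seeing the data.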

Additional observations from a re-analysis of the deposited data

Results flagged for a closer look

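Fabp5 differed in direction between 2 classes. Its log2 ratio of KO to WT was -1.15 in cDC2-like cells (67.7 and 30.4 CPM) and 1.55 in neutrophil-like cells (27.9 and 81.6 CPM, from 6 and 80 UMIs), a difference of -2.70. The difference was not tested, since each genotype has 1 library.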

How the results depend on the processing

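No paired analysis was possible because each genotype has 1 library. Intervals cover counting error, the pools hide animals, and class names rest on rebuilt clusters. With 12 ways of processing, Cd36 and Nr1h3 in resident macrophage-like and Fabp4 in monocyte-like cells kept a 2-fold size.

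Of the ratios reported as at least 2-fold, the direction turned for Lpl in resident macrophage-like cells with every deposited barcode (-0.22), 4000 variable genes (-0.27), the members among the variable genes (-0.40) and cluster 3 alone (-0.073). It turned for Abca1 (0.069) and Nr1h3 (0.069) in monocyte-like cells at Leiden resolution 0.5, for Abca1 without cluster 1 (0.022), and for Spp1 with each library clustered alone (-0.57). It turned for Apoe in T cell-like cells under a stricter cell filter (-0.87), for Fabp5 in cDC2-like cells with the highest marker score per cell (0.33), and for Apoe in cDC1-like cells with every barcode (-0.14), 4000 variable genes (-1.09), each library alone (-0.16), the marker score (-1.82) and the mean of per-cell values (-0.38). Smaller ratios turned as well, among them Fabp5 in resident macrophage-like cells (5 of 12 settings, down to -1.28), Apoe in resident macrophage-like (5 of 12 settings, up to 1.12) and cDC2-like cells (3 of 12, up to 0.41) and Abcg1 in cDC1-like cells (4 of 11, up to 0.20). The cause was not tested.

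The number of the 9 genes at least 2-fold different moved by over 1.5 times in the cases listed here. In resident macrophage-like cells 4 became 2 after thinning (and 3, a smaller move, in cluster 3 alone). In monocyte-like cells 3 became 1 with every barcode, resolution 0.5, 4000 variable genes, the marker score or no cluster 1. In cDC2-like cells 4 became 1 with every barcode, 4000 variable genes or the members among the variable genes, and 2 at resolution 0.5 or after thinning. In cDC1-like cells 1 became 3 with the stricter filter or 4000 variable genes, 2 at resolution 2, with the marker score, without the top 3% of doublet scores or after thinning, and 0 with the members among the variable genes or per-cell means. In neutrophil-like cells 3 became 5 with every barcode, without likely doublets or after thinning, and 0 at a minimum of 100 UMIs. In B cell-like cells 2 became 1 with the stricter filter, each library alone, totals without mitochondrial, ribosomal protein and immunoglobulin UMIs, thinning or a minimum of 100 UMIs, 0 without likely doublets, and 4 with no minimum. In T cell-like cells 1 became 0 with 4000 variable genes or without likely doublets, and 3 with no minimum.

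The median log2 ratio of all genes shifted by over 0.1 in T cell-like cells with the reduced totals (0.13), in B cell-like cells with each library alone (-0.14), with no minimum in cDC1-like (-0.11), cDC2-like (-0.27), neutrophil-like (-0.62), B cell-like (0.14) and T cell-like cells (0.19), and at a minimum of 100 UMIs in neutrophil-like cells (0.18).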
